A study of Mus musculus with 10 samples.

Results

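A set of 9 neutrophil granule genes was followed through 10 sections of mouse liver and liver tumour: Prtn3, Elane, Mpo and Ctsg of the primary granules, Camp, Ngp and Ltf of the specific granules, and S100a8 and S100a9, the cytosolic calcium-binding pair of the maturing cell. They were taken by gene symbol, and all 9 of 9 were found once among the 31053 genes listed. The measurement was 10x Genomics Visium, in which barcoded spots capture RNA of a 10 µm frozen section and count it as unique molecular identifiers (UMIs). A spot can hold several cells, so values describe spots and sections, and fewer cells of a type cannot be told apart from less RNA per cell.

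The 7 tissues were NEJ146 with 4 adjacent sections, and NEJ634, NEJ638, NEJ654, NEJ677, NEJ687 and NEJ723 with 1 section each. All were labelled hepatoblastoma, a liver tumour of early childhood. The study's text names NEJ146, NEJ634, NEJ687 and NEJ723 as tumours of ABC-Myc mice (alleles Alb-Cre and CAG-MYC), in which Cre under the albumin promoter, active in the hepatocyte lineage, removes a stop cassette ahead of human MYC on a C57BL/6J background. Those 4 are called the named tumours here, and NEJ638, NEJ654 and NEJ677 the other 3 tissues. By the study's text its other Visium samples were 3 healthy mouse livers, but neither its text nor the labels give NEJ638, NEJ654 and NEJ677 by name as these, and the labels give no genotype or age by section. For this reason the tissues were kept as 7 groups, and no test of tumour against liver was run. The SD over NEJ146 sections covers 1 tissue only, and exact Poisson or binomial 95% intervals elsewhere cover counting error only.

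Sections held 61627315 to 117556249 UMIs, with 1890 to 4878 tissue spots and a median of 12133.5 to 28926.5 UMIs per tissue spot. NEJ146 stands apart technically: its labels give total RNA where the others give polyA RNA, its tissue spots were set here as those with at least 8000 UMIs, and its mitochondrial share was 6.78% to 7.22% against 2.46% to 3.86% elsewhere. In NEJ146, what is due to the batch and what to the tissue cannot be told apart. In the other tissues the spots called off the tissue had medians of 6659.5 to 11895 UMIs, so the tissue calls did not separate full from empty spots, and the comparison of NEJ723 with NEJ634 and the ratios of stages are also given with every spot. Hepatocyte genes (Alb, Apoa1, Ttr, Cyp2e1 and Ass1) summed to 18682 counts per 1000000 UMIs (CPM) or more in each of the 7 tissues. Hepatoblast genes (Afp, Igf2, Dlk1 and H19) summed to 3804 to 13628 CPM in the named tumours but to 90.1, 10.4 and 10.1 CPM in NEJ638, NEJ654 and NEJ677, so the label hepatoblastoma was not borne out by these markers in the other 3 tissues.

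Neutrophils fill their granules in order while they mature. Promyelocytes make the primary (azurophil) granule proteins, the serine proteases Prtn3 (proteinase 3), Elane (neutrophil elastase) and Ctsg (cathepsin G), and Mpo (myeloperoxidase), which makes hypochlorous acid. Myelocytes and metamyelocytes then make the specific granule proteins Camp (cathelicidin), Ngp (neutrophilic granule protein) and Ltf (lactotransferrin, which binds iron). S100a8 and S100a9, the subunits of calprotectin, stay abundant into the blood neutrophil, whereas transcripts of primary granule genes are lost early. Mature neutrophils in tissue therefore carry little mRNA of the primary granule genes, and the fetal liver, unlike the adult one, is a normal site of neutrophil formation.

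The stage order is known to follow transcription factors, among them PU.1 early and C/EBP epsilon at the specific granule stage, so the bases before the start sites are shown for a pair of genes of each stage. The 250 bases before the RefSeq start site are printed 5′ to 3′ on the gene's strand (RefSeq, GRCm38.p6), with capitals marking the searched letters GAGGAA, a core that PU.1 binds, and TTNNGNAA, a C/EBP pattern, on either strand. The windows are chr10:79879417-79879666 for Prtn3, chr10:79886062-79886311 for Elane, chr9:110419558-110419807 for Ngp and chr9:111019042-111019291 for Ltf, all on the plus strand.
Prtn3: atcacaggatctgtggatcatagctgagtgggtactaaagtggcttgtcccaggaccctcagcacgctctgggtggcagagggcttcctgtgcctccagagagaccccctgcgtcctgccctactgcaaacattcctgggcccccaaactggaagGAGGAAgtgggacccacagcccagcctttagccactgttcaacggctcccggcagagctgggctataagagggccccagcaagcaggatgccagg
Elane: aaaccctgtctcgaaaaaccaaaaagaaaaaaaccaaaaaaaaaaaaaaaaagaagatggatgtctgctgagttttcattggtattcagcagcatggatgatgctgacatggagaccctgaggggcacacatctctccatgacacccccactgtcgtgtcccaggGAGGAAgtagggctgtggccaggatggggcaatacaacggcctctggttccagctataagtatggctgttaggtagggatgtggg
Ngp: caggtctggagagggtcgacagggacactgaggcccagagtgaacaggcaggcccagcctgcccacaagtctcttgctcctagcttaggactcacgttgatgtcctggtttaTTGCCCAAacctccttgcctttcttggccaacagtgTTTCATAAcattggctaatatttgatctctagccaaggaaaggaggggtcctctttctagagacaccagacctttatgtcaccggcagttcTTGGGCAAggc
Ltf: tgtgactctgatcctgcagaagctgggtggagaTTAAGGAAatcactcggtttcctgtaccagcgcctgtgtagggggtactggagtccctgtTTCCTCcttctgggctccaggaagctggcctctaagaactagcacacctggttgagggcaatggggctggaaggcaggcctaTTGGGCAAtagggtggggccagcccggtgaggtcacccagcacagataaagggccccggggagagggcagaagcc

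All 9 members matched a RefSeq window. GAGGAA was in the window of all 4 primary granule genes (Prtn3 at 95 bases before the start, Elane at 85, Mpo at 247 and 224, Ctsg at 216), and in 2 of the 5 later genes (Ltf and S100a8). TTNNGNAA was in none of the 4 primary granule genes and in 4 of the 5 later genes: Ngp (3 matches), Ltf (2), S100a9 (2) and S100a8 (1). Camp had neither. No matches overlapped. Of 32851 promoter windows of this length, 23.3% held GAGGAA and 36.8% held TTNNGNAA, so both are common letters. The windows of 300 bases that reach past the start site gave the same genes for both. The start sites of GENCODE and RefSeq were the same for Ctsg and S100a9 and lay 21 bases apart for Ltf, 61 for Ngp, 65 for Elane, 93 for S100a8, 161 for Camp, 203 for Mpo and 5191 for Prtn3, whose printed window lies wholly within the GENCODE gene. A match is a description of letters and not of binding.

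Of the 9 genes, 7 share a chromosome with another member (GENCODE M21, GRCm38). Prtn3 (ENSMUSG00000057729, chr10:79874476-79883174) and Elane (ENSMUSG00000020125, chr10:79886247-79888215) are 3072 bases apart on the same strand. Camp (ENSMUSG00000038357, chr9:109847379-109849617), Ngp (ENSMUSG00000032484, chr9:110419747-110423012) and Ltf (ENSMUSG00000032496, chr9:111019271-111042767) share chromosome 9. S100a8 (ENSMUSG00000056054, chr3:90668978-90670035) and S100a9 (ENSMUSG00000056071, chr3:90692632-90695721) are neighbours on chromosome 3. Mpo (ENSMUSG00000009350, chr11:87793581-87804413) and Ctsg (ENSMUSG00000040314, chr14:56099881-56102574) stand alone, the latter next to the basophil protease gene Mcpt8. Of these genes, Prtn3 overlaps Plppr3 by 159 bases and Mpo overlaps Gm11505 by 5361 bases, both on the opposite strand. The sources used here do not say whether strand was used in counting.

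Every one of the 9 genes was highest in NEJ687, was higher in each of the 4 named tumours than in any of the other 3 tissues, and ranged more than 4-fold over the 7 tissues. Among the 12648 genes whose mean over tissues reached 1 CPM, 17.3% were highest in NEJ687, 42.1% had NEJ638, NEJ654 and NEJ677 as their 3 lowest tissues, and 32.5% ranged at least 4-fold. All 9 members passed that filter on low values, but Elane, Mpo, Ctsg, Camp, Ngp and Ltf were below 1 CPM in each of the other 3 tissues. These genes passed only through the named tumours, so the filter itself favours the last 2 patterns for them. The 3 patterns were thus common, and the 9 genes, being from 1 lineage, are not 9 independent cases. Camp, Ngp, Ltf, Prtn3, Elane and Mpo are among the genes that the study found most raised in its tumours by single-cell sequencing. Ermap and Rhd of the erythroid list are too. The tumours so sequenced included NEJ634, NEJ687 and NEJ723, so the order of tissues was in part known when the members were chosen. Some marker lists of other blood cells were also higher in each named tumour than in the other 3 tissues. Megakaryocyte genes (5, with Pf4 and Itga2b) summed to 63.9 to 148 CPM against 9.42 to 14.8, eosinophil genes (6, with Epx and Prg2) to 18.3 to 41.4 against 2.38 to 3.37, and erythroid genes (9) to 336 to 2653 against 42.3 to 107. T and NK cell genes (4) summed to 5.30 to 13.9 CPM against 2.38 to 3.37, and mature neutrophil genes (9) to 19.9 to 64.8 against 8.64 to 10.8. Further primary granule genes (6) summed to 289 to 564 CPM against 207 or less, with NEJ634 highest and NEJ723 lowest of the named tumours. In the other 3 tissues Epx, Prg3 and Ear1 were at 0 UMIs, as 3 or 4 of the 6 eosinophil genes were in each. Other lists did not follow this pattern, or barely did. Further specific and gelatinase granule genes (7) summed to 268 to 631 CPM in the named tumours and to 222 to 381 in the other 3 tissues, and granulocyte transcription factors (8), some of which hepatocytes also express, to 147 to 278 against 305 to 406. Kupffer cell and macrophage genes (8) ran from 282 to 1665 CPM against 296 to 530, B cell genes (4) from 3.45 to 7.61 against 3.95 to 6.31, and monocyte genes (5) from 514 to 854 against 1010 to 1168. Myeloid progenitor genes (4) ran from 12.4 to 33.6 CPM against 6.71 to 12.4, with NEJ638 within the spread of the NEJ146 sections (11.2 to 14.0). Each sum follows the most abundant genes of its list, which other cells can also make. Lrg1 of the specific and gelatinase list, for example, is also a product of hepatocytes, so the sums are not amounts of a cell type. The further granule lists go by stage and also hold genes that do not encode granule proteins, such as Ms4a3 and Ltb4r1. The part of these other cells in the levels of the 9 genes was not tested.

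Among the primary granule genes, Prtn3 was measured at 9.62, 9.54, 10.4 and 10.4 CPM in NEJ146 sections 1 to 4, at 12.3 in NEJ634, 46.9 in NEJ687, 14.3 in NEJ723, 4.81 in NEJ638, 1.34 in NEJ654 and 1.58 in NEJ677. Elane was at 1.92, 1.59, 2.24 and 1.66 CPM in the NEJ146 sections, 5.52 in NEJ634, 14.2 in NEJ687, 5.96 in NEJ723, 0.274 in NEJ638, 0.165 in NEJ654 and 0.204 in NEJ677. Both proteases were thus highest in NEJ687 and lowest in the other 3 tissues, but Prtn3 fell only 2.08-fold from NEJ146 to NEJ638 where Elane fell 6.77-fold. Mpo was at 7.54, 5.84, 7.04 and 5.94 CPM in the NEJ146 sections, 15.2 in NEJ634, 50.3 in NEJ687, 28.1 in NEJ723, 0.215 in NEJ638, 0 in NEJ654 and 0.0509 in NEJ677. Ctsg was at 1.35, 1.17, 1.15 and 1.11 CPM in the NEJ146 sections, 2.94 in NEJ634, 11.5 in NEJ687, 7.81 in NEJ723, 0.0195 in NEJ638 (1 UMI) and 0 in NEJ654 and NEJ677. Both were close to the limit of detection in the other 3 tissues: Mpo rested on 11, 0 and 2 UMIs in NEJ638, NEJ654 and NEJ677. Taking 3 UMIs per library for a count of 0, Mpo was at least 713-fold lower in NEJ654 than in NEJ687, and Ctsg at least 163-fold.

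Among the specific granule genes, Camp was at 29.3, 56.1, 41.8 and 45.6 CPM in the NEJ146 sections, 87.9 in NEJ634, 184 in NEJ687, 70.0 in NEJ723, 0.821 in NEJ638, 0.118 in NEJ654 and 0.204 in NEJ677. Ngp was at 17.3, 33.9, 24.6 and 22.7 CPM in the NEJ146 sections, 59.4 in NEJ634, 109 in NEJ687, 50.3 in NEJ723, 0.449 in NEJ638, 0.0941 in NEJ654 and 0.229 in NEJ677. Ltf was at 7.29, 14.2, 9.64 and 7.16 CPM in the NEJ146 sections, 23.5 in NEJ634, 45.4 in NEJ687, 16.3 in NEJ723, 0.117 in NEJ638, 0.118 in NEJ654 and 0.0255 in NEJ677. The 3 genes kept 1 order of the 4 named tumours, NEJ687 over NEJ634 over NEJ723 over NEJ146, with no overlap of intervals or sections between neighbours. Below them the counts were small: NEJ654 had 5 Camp, 4 Ngp and 5 Ltf UMIs in 42493457, and Camp was 1565-fold higher in NEJ687 than there (95% interval 671 to 4822).

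The S100 pair was present in every tissue. S100a8 was at 71.3, 130.4, 93.3 and 79.3 CPM in the NEJ146 sections, 228 in NEJ634, 293 in NEJ687, 97.3 in NEJ723, 5.45 in NEJ638, 2.71 in NEJ654 and 2.52 in NEJ677. S100a9 was at 125, 204, 147 and 158 CPM in the NEJ146 sections, 278 in NEJ634, 414 in NEJ687, 151 in NEJ723, 11.3 in NEJ638, 5.20 in NEJ654 and 4.51 in NEJ677. For both, NEJ723 fell within the range of the NEJ146 sections, and the intervals of NEJ654 and NEJ677 overlapped. The fall from NEJ687 to NEJ654 was 108-fold (90 to 131) for S100a8, smaller than that of Camp.

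**Figure D1:**
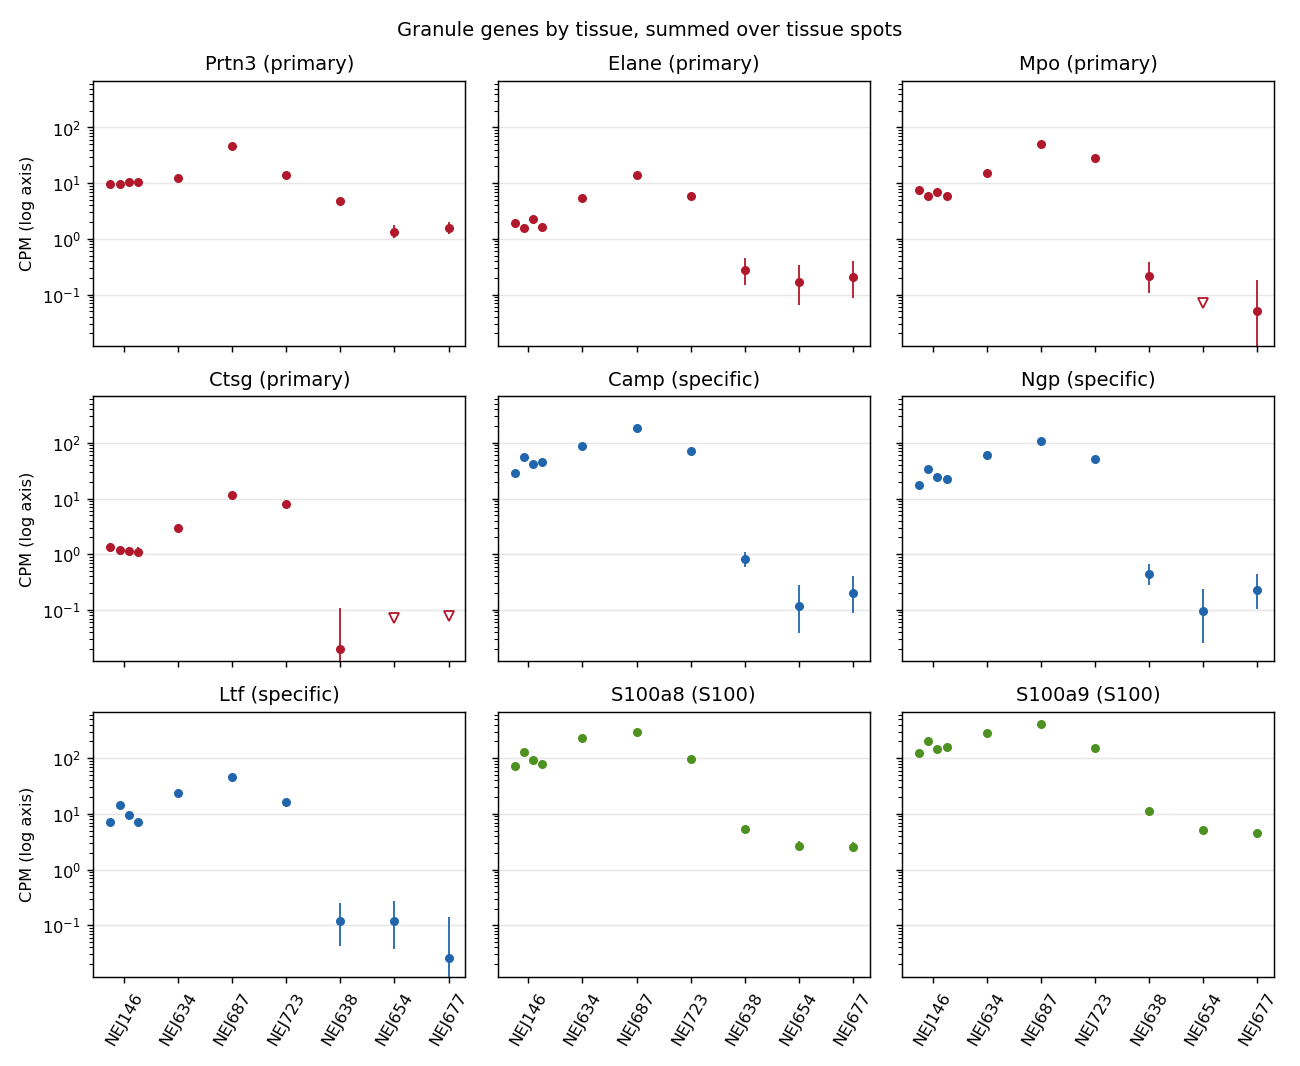
CPM (log axis) of each gene by tissue, 1 point per section with its exact 95% Poisson interval, and open triangles at the level of 3 UMIs where no UMI was counted. NEJ687 is the highest tissue in all 9 panels, and Prtn3, at 1.34 CPM or more everywhere, falls least toward NEJ638, NEJ654 and NEJ677.

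Mpo and Ctsg were higher in NEJ723 than in NEJ634 and the 5 later genes lower, while Prtn3 and Elane had no steady order. Mpo was 1.84-fold (95% interval 1.69 to 2.01) and Ctsg 2.66-fold (2.20 to 3.22) higher in NEJ723. Prtn3 (1.16-fold, 1.04 to 1.29) and Elane (1.08-fold, 0.912 to 1.28) were nearly level. Camp (0.797), Ngp (0.848) and Ltf (0.694) were lower in NEJ723 than in NEJ634, and the ratio was lowest for S100a8 (0.426, 0.411 to 0.441) and S100a9 (0.543, 0.527 to 0.559). With every spot of both slides, on or off the tissue, Mpo (1.28) and Ctsg (1.51) were still higher in NEJ723 and the 5 later genes lower, while Prtn3 (0.890) and Elane (0.696) turned to the lower side. The 4 primary granule genes summed were 1.56-fold (1.47 to 1.65) higher in NEJ723 in tissue spots but 1.08-fold (1.03 to 1.13) with every spot. NEJ687 was above NEJ634 by more for the primary granule genes (2.57-fold to 3.91-fold) than for the specific granule genes (1.83-fold to 2.10-fold) or S100a8 (1.28-fold). The further lists of these stages did not follow the members. Further primary granule genes summed to 289 CPM in NEJ723, 428 in NEJ687 and 564 in NEJ634, and further specific and gelatinase granule genes to 332, 631 and 268. Ctsc and Lyz2 of the first list are also made by macrophages, and Lrg1 of the second by hepatocytes. All these values are from 3 sections of 3 tissues, and no spread between animals stands behind them.

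Expressed within a section, which removes the depth of the library, primary granule genes made up 29.1% (28.2 to 30.1) of the UMIs of primary plus specific granule genes in NEJ723, 26.6% (26.1 to 27.2) in NEJ687 and 17.4% (16.7 to 18.1) in NEJ634. The NEJ146 sections gave 27.5%, 14.8%, 21.5% and 20.2%, a spread that spans NEJ634 and NEJ687. In this tissue the primary granule genes were steady between sections, at 19.6 ± 1.23 CPM (SD, n = 4), while the specific granule genes were at 77.4 ± 20.7 CPM. The log2 ratio of primary to specific granule genes was -1.28 in NEJ723, -1.46 in NEJ687, -2.24 in NEJ634 and -1.94 ± 0.46 in NEJ146 (SD, n = 4). In NEJ638 it was 1.93, on 272 primary and 71 specific UMIs. NEJ654 and NEJ677 had 14 and 18 specific UMIs, too few for a ratio. Over the 5 tissues with at least 20 UMIs of both groups the range was 4.17 on the log2 scale, and against all 5 later genes it was 2.47 over 7 tissues. With every spot all 7 tissues had enough UMIs, the range against specific granule genes was 4.37, and the highest ratio was that of NEJ654 in place of NEJ638.

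The size of those ranges rested on Prtn3. It was 90.4%, 89.1% and 86.1% of the primary granule UMIs in NEJ638, NEJ654 and NEJ677, but 25.5% in NEJ723, 34.3% in NEJ634, 38.2% in NEJ687 and 47.1% to 54.5% in the NEJ146 sections. Without it, an alternative added after these values were seen, the range was 1.54 against specific granule genes and 1.93 against all later genes, each over 5 tissues. The tissue with the highest ratio to later genes then changed from NEJ638 to NEJ723, and primary granule genes were 9.80% of primary plus later UMIs in NEJ723, 6.78% in NEJ687, 3.38% in NEJ634 and 1.92% to 4.14% in NEJ146, with 2.73% (1.79 to 3.97) in NEJ638. Against specific granule genes NEJ638 was still highest without Prtn3, at 26.8% (18.3 to 36.8, on 26 primary UMIs), with 23.4% in NEJ723, 18.3% in NEJ687, 12.2% in NEJ634 and 7.62% to 16.7% in NEJ146.

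**Figure D2:**
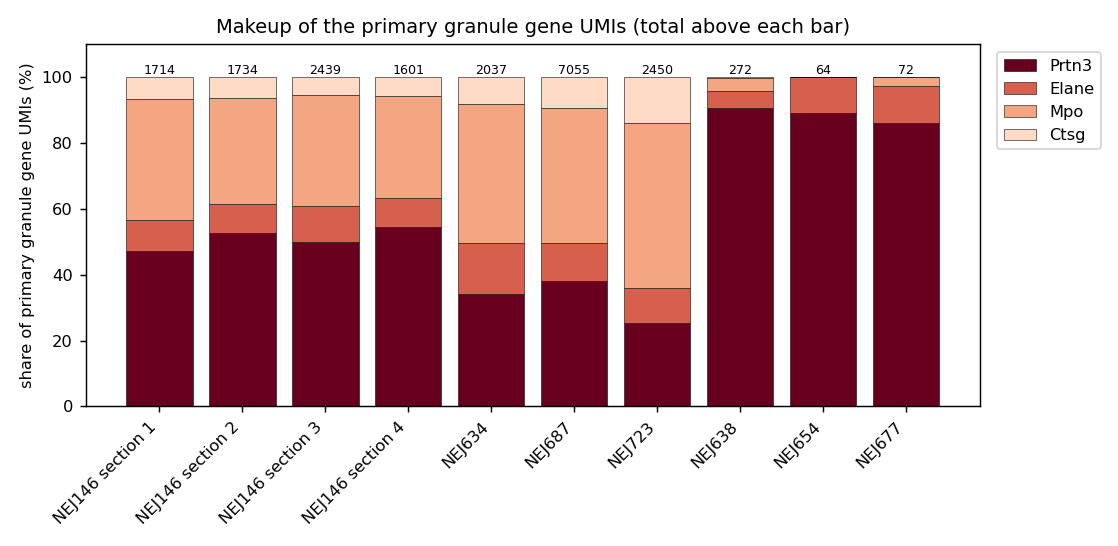
Share (%) of primary granule gene UMIs from Prtn3, Elane, Mpo and Ctsg in each section, with the number of UMIs above each bar. Prtn3 is 86.1% or more in NEJ638, NEJ654 and NEJ677 and 54.5% or less in the other sections, where Mpo is 31.0% to 50%.

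In the other 3 tissues the UMIs of Prtn3 were spread over many spots. In NEJ638 its 246 UMIs fell in 229 spots and never more than 2 in a spot, in NEJ654 its 57 UMIs fell in 57 spots, and in NEJ677 its 62 UMIs fell in 61 spots. Elane had 14, 7 and 8 UMIs in as many spots of NEJ638, NEJ654 and NEJ677, and so few UMIs would seldom share a spot by depth alone. The 11 Mpo UMIs of NEJ638 lay in 8 spots, with up to 3 in a spot. The 71 specific granule UMIs of NEJ638 lay in 40 spots instead, with 18 in a single spot. In the named tumours Prtn3 had at most 7 to 32 UMIs in a spot, and spots with a UMI of Elane, Mpo or Ctsg held more of it: 19.7 against 9.60 CPM in NEJ723, 20.8 against 8.65 in NEJ634, 58.5 against 34.9 in NEJ687, and 27.5 to 38.7 against 7.23 to 7.79 in NEJ146. Spots in which no UMI of the other primary granule genes was counted still held Prtn3 in each named tumour. In NEJ687 these other genes had 4363 UMIs over 4458 tissue spots, so a count of 0 need not mean that their RNA was absent. In NEJ638, NEJ654 and NEJ677 the same-spot index of Prtn3 with the summed hepatocyte genes, explained next, was 1.05, 0.97 and 1.02, close to the 1 that spot depth alone gives. With Kupffer cell and macrophage genes it was 0.942, 1.10 and 0.922. The hepatocyte genes were at 80848 to 115440 CPM and so weigh in spot depth itself. RNA of any source that is spread with depth would have an index near 1 in these tissues. Plppr3, which overlaps it on the other strand, was at 0.196, 0.282 and 0.178 CPM there, below Prtn3. The part of hepatocyte RNA or of overlapping reads in the dispersed level was not tested.

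To ask which genes shared spots, the sum over spots of the product of 2 genes' UMIs was divided by that given by spot depth alone. This same-spot index is 1 when UMIs follow depth, and it does not depend on the level of the gene. For 1 gene or group with itself it counts pairs of UMIs in a spot, and taken over neighbouring spots it is called the adjacent-spot index. Pairs of members were read in the 4 named tumours, where each member had at least 20 UMIs in each section. Groups were compared in the tissues with at least 20 UMIs of both, which adds NEJ638 (272 primary and 71 specific UMIs), although Elane, Mpo, Ctsg and Ltf had only 14, 11, 1 and 6 UMIs there.

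Primary granule genes shared spots with each other, as the later genes did, and shared fewer across. In NEJ687 the 6 pairs of primary granule genes had indices of 3.33 to 5.90, the 10 pairs of later genes 4.52 to 7.40, and the 20 pairs across stages 1.26 to 2.39. NEJ723 gave 2.69 to 5.38, 3.28 to 4.58 and 1.03 to 1.72 in the same order. In both tissues every pair within a stage was above every pair across, as it was in NEJ146 sections 2, 3 and 4, later genes being counted as 1 stage. NEJ634 gave 6.32 to 13.3, 10.9 to 18.3 and 2.80 to 6.69, with 2 of 20 pairs across stages above the lowest pair within, as in NEJ146 section 1. Both exceptions rested on Prtn3: in all 7 sections of these tissues the 13 within-stage pairs without Prtn3 were above the 15 pairs across without it.

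Specific granule and S100 genes were not separated in this way. The specific and S100 groups had a same-spot index with each other of 13.2 in NEJ634, 5.46 in NEJ687, 3.89 in NEJ723 and 30.1 ± 16.3 in NEJ146 (SD, n = 4). The primary and specific groups had 4.65, 1.81, 1.34 and 3.34 ± 0.66, and the primary and S100 groups 3.93, 1.67, 1.34 and 3.08 ± 0.77. Within spots the break thus lay between the primary granule genes and all later ones. Between neighbouring spots it was not seen in NEJ634. There the adjacent-spot index was 3.78 for primary with specific granule genes and 3.35 for primary granule genes with themselves. It was 1.42 against 1.84 in NEJ687, 1.25 against 1.74 in NEJ723 and, as a mean of sections, 2.61 against 3.77 in NEJ146. In the same-spot index primary and specific granule genes were still above 1 in all 5 tissues with enough UMIs. The value of 5.91 in NEJ638 was on 71 specific UMIs, with 18 of them in a single spot. Elane with Camp was at 57.3 there on 14 Elane UMIs, so the size of this value rested on few spots. In NEJ654 and NEJ677, with 14 and 18 specific UMIs, the index of the 2 groups was 0.

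**Figure D3:**
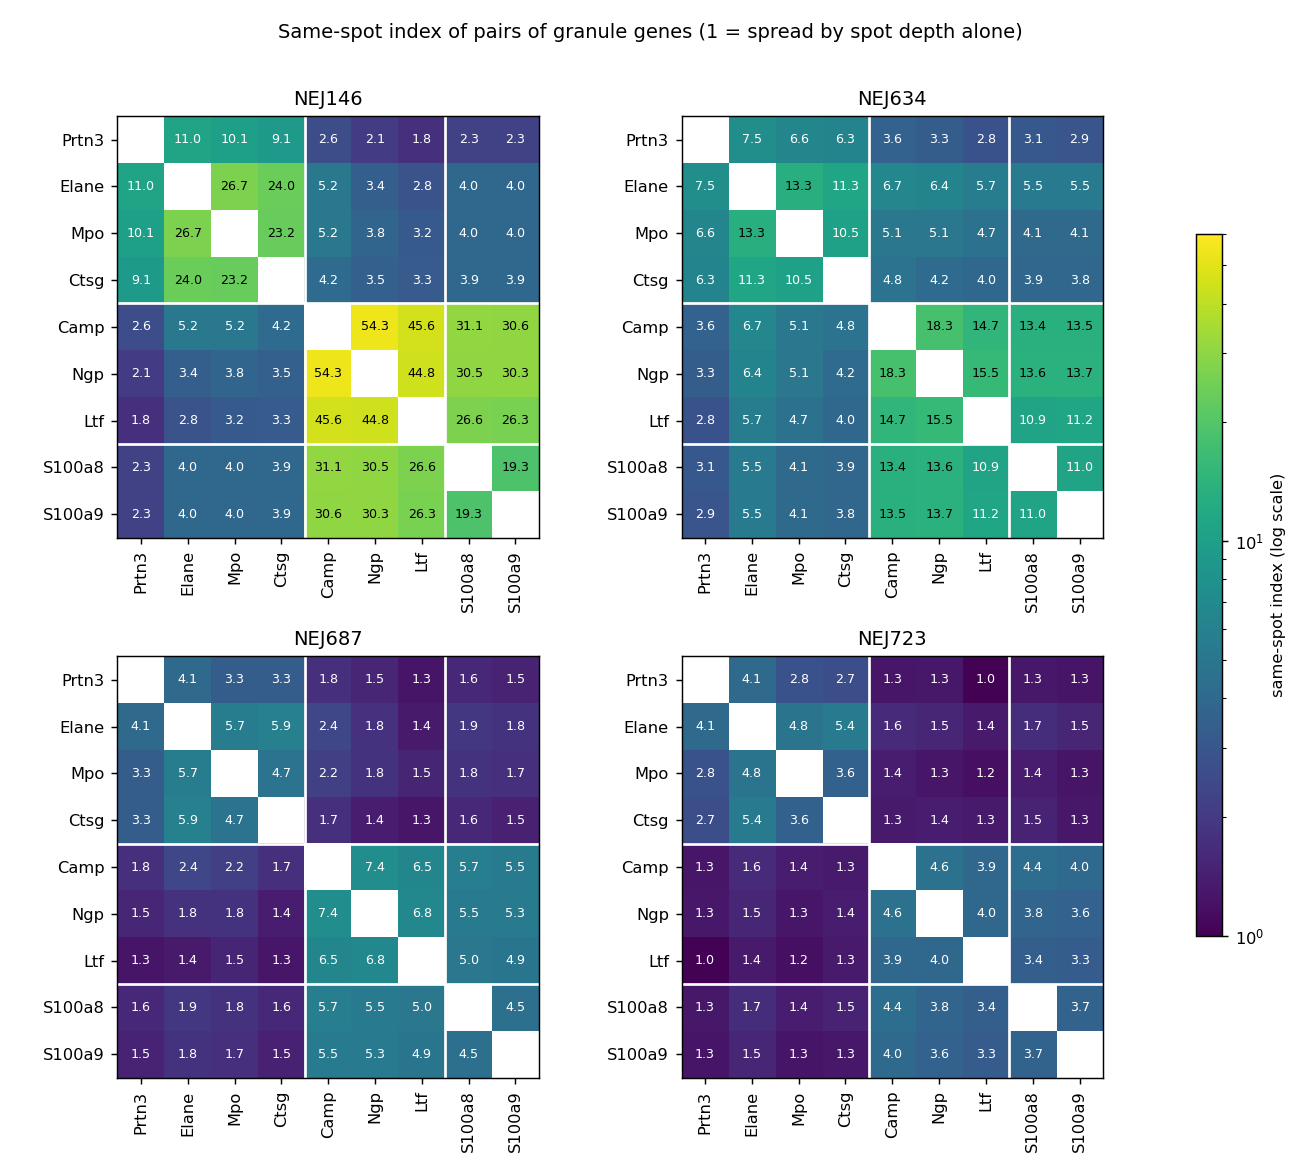
Same-spot index (colour on a log scale, value in each cell) for the 36 pairs of genes in the 4 named tumours, with white lines between primary, specific and S100 genes and NEJ146 as the mean of its 4 sections. Blocks within primary genes and within later genes are high, from 2.69 upward in NEJ723, and the blocks between them are low, down to 1.03 there.

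Spots rich in primary granule genes were also rich in specific granule genes more often than tissue spots at large. Rich spots are those with 5 or more UMIs, and as primary-rich spots were far fewer than specific-rich ones, the overlap could only be a small share of the latter. The overlap is not corrected for spot depth. Primary-rich spots were 6.42% of tissue spots with 9.93% of all UMIs in NEJ687, 3.96% with 5.36% in NEJ723 and 3.70% with 4.48% in NEJ634. In NEJ146 sections 1 to 4 they were 1.03% with 1.02%, 0.936% with 0.855%, 1.35% with 1.62% and 1.32% with 1.44%. Of 286 tissue spots of NEJ687 with 5 or more primary granule UMIs, 49.0% also had 5 or more specific granule UMIs, against 20.1% of all tissue spots, and the overlap was 15.7% of the 894 spots rich in specific granule genes. In NEJ723 the overlap of 31 spots was 32.6% of 95 and 10.2% of 304, with 12.7% of all spots specific-rich. In NEJ634 it was 47 spots, 67.1% of 70 and 15.4% of 306, with 16.2% of all spots specific-rich. In the NEJ146 sections 28.3% to 42.9% of 42 to 66 primary-rich spots were also rich in specific granule genes, against 3.59% to 7.65% of all spots. Of specific-rich spots in these 7 sections, 85.5% to 98.3% had 5 or more S100 UMIs, as did 15.1% to 58.6% of all spots.

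**Figure D4:**
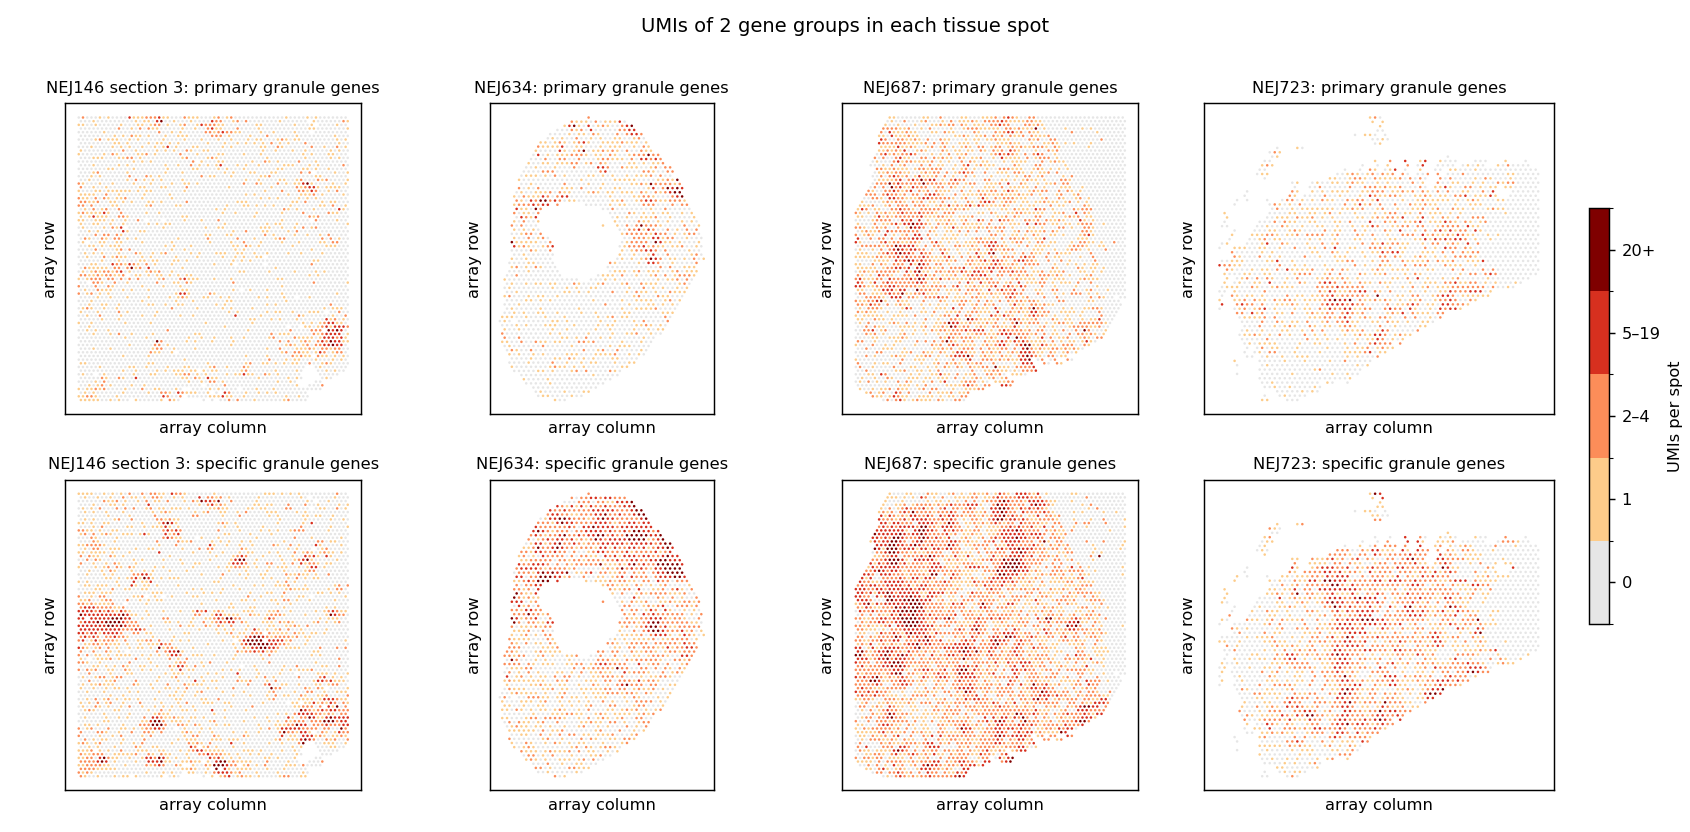
UMIs of primary (top) and specific granule genes (bottom) in each tissue spot of 4 sections, drawn at array row and column in steps of 0, 1, 2 to 4, 5 to 19 and 20 or more UMIs. Specific granule genes form dense patches in NEJ146 section 3, NEJ634 and NEJ687 that only in part coincide with spots rich in primary granule genes (24 of 66 primary-rich spots in NEJ146 section 3).

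The foci differed in density by stage. The adjacent-spot index was lower for primary than for specific granule genes in all 5 tissues compared, at 1.74 against 1.96 in NEJ723, 1.84 against 3.33 in NEJ687, 3.35 against 6.58 in NEJ634 and 1.19 against 16.9 in NEJ638. In NEJ146 it was 3.31, 2.71, 5.17 and 3.90 for primary and 6.60, 7.40, 13.4 and 47.6 for specific granule genes in sections 1 to 4. Section 4 stood far above the others for the specific granule genes (18.7 ± 19.5 over the 4 sections), but primary genes were lower in each section by itself. Prtn3 had the lowest adjacent-spot index of the 9 genes in each of the 4 named tumours, at 1.38 in NEJ687 to 2.36 in NEJ146 section 3, while Mpo was at 1.70 in NEJ723 and 9.57 in NEJ146 section 3. The order of the groups was unchanged without Prtn3 in the named tumours. In NEJ638 Prtn3 was 90.4% of the primary granule UMIs. Elane, Mpo and Ctsg had 14, 11 and 1 UMIs there, each with an adjacent-spot index of 0. NEJ638 therefore cannot show an order of the stages, with or without Prtn3. The order of the groups did not hold gene by gene: in NEJ723 Elane (2.85) and Ctsg (2.24) were above Camp (2.04), Ltf (1.99) and Ngp (1.91).

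Clustering faded over a few spots. In NEJ634 the index of specific granule genes was 6.58 at 1 step, 3.15 at 2, 2.15 at 3 and 1.53 at 5 steps, and that of primary granule genes 3.35, 2.01, 1.55 and 1.23. NEJ723 was the least clustered of the 4 tumours at 1 step, and there both groups were at or below 1.15 from 5 steps on. In NEJ687 specific granule genes were at 1.41 and primary granule genes at 1.17 at 5 steps.

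**Figure D5:**
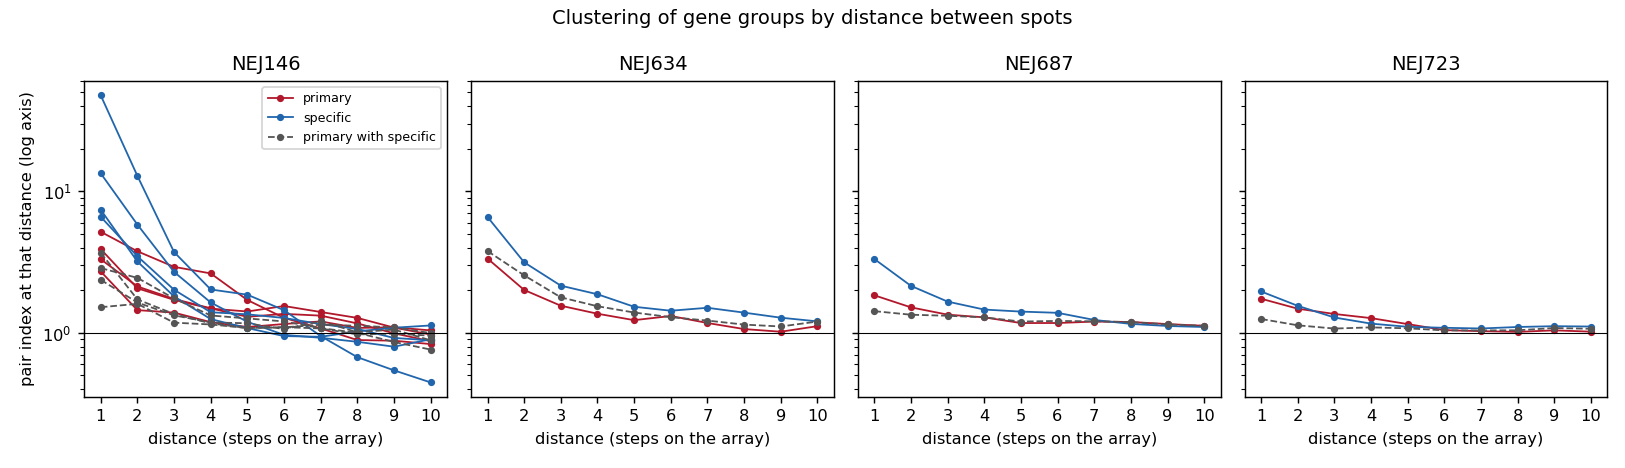
Index for pairs of spots at 1 to 10 steps on the array (log axis) in the 4 named tumours, for primary granule genes (red), specific granule genes (blue) and the 2 groups with each other (dashed grey), 1 line per section. Specific granule genes start highest in each section, from 1.96 in NEJ723 to 47.6 in NEJ146 section 4, and at 8 steps the values by tissue are 0.907 to 1.39 for these 2 groups.

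Other genes of the lineage were placed by their same-spot index with each group, as the median over tissues where at least 5 joint counts were given by depth (at least 3 tissues, NEJ146 sections pooled). The number of tissues can differ between groups for a gene and between genes. The specific granule genes are also themselves the more clustered. For these reasons medians with the 2 groups are set side by side and not ranked. Where a direction within single tissues is given, it describes the index values only and still carries the stronger clustering of the specific group. Among 15551 genes so measured with the primary group, 0.418% reached 2 and the median was 0.979. For the specific group it was 1.65% of 17079 genes, with a median of 0.947, and for the S100 group 1.12% of 17838, with a median of 0.964. Of the 5 later members, 3 reached 2 with the primary group (Camp, Ngp and S100a8), while all 6 other members did so with the specific group and 6 of 7 with the S100 group. These calls depend on the tissues in the median. S100a9 was at 1.63 with the primary group over 7 tissues, with NEJ654 (0.938) and NEJ677 (0.912). S100a8 was at 2.46 over 5, without these. The pair was close in the named tumours, at 3.06 and 3.03 in NEJ146 and 3.90 and 3.95 in NEJ634. Prtn3, at 1.35 with the S100 group, was also taken over 7 tissues.

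Of 6 further genes listed with the primary granules, 3 reached 2 with the primary group and 4 with the specific group, with list medians of 3.74 and 2.98. Ms4a3, a marker of granulocyte and monocyte progenitors, was at 8.26 with the primary and 3.68 with the specific group. Prss57, a serine protease of primary granules, was at 5.93 and 2.48. Ms4a3 and Prss57 were higher with the primary group in each of the 4 named tumours. Fcnb (ficolin B) stood with both, at 6.57 with the primary and 9.39 with the specific group. Ctsc, which activates the granule proteases, was at 1.03 and Lyz2 (lysozyme) at 1.09 with the primary group, and 1.12 and 1.87 with the specific group. Serpinb1a, an elastase inhibitor, was at 1.56 with the primary group, over 7 tissues, and at 3.48 with the specific group, over 4. Ctsc and Lyz2 are also made by macrophages.

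Of 7 further genes listed with the specific and gelatinase granules, 6 reached 2 with the specific group and 2 with the primary group. The list medians were 3.77 and 1.72. The surface protein gene Cd177 was at 10.5 with the specific and 2.39 with the primary group, Chil3 (Ym1) at 9.82 and 2.83, and the leukotriene receptor gene Ltb4r1 at 5.41 and 1.72. The matrix proteases Mmp9 (3.77 against 1.11) and Mmp8 (3.12 against 1.72) and the siderophore binder Lcn2 (2.91 against 1.02) had the same direction, and all 6 were higher with the specific group in each of the 4 named tumours. Lrg1, also a product of hepatocytes, was near 1 with both. Among 9 genes of mature neutrophils, 5 reached 2 with the specific group, 3 with the S100 group and 0 with the primary group. The list medians were 2.02, 1.93 and 1.31 in the same order. Ly6g was at 9.04 with the specific, 7.27 with the S100 and 1.61 with the primary group, and Retnlg at 3.93, 6.64 and 1.31.

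Of 8 transcription factors of granulocytes, Gfi1, which represses monocyte genes, alone reached 2 with the primary group (5.26, against 3.21 with the specific group), and its direction was not steady: 8.35 against 0.775 in NEJ634 but 2.16 against 5.0 in NEJ723. Cebpe, required for specific granules, was at 5.71 with the specific group and 1.55 with the primary group. In single tissues Cebpe was at 8.36 against 3.0 in NEJ634, 3.05 against 1.58 in NEJ687 and 2.42 against 1.39 in NEJ723. Myb, of progenitors, was at 2.14 with the specific group and 1.98 with the primary group. Spi1, which encodes PU.1, was at 1.74 and 1.03, and Cebpa, also a hepatocyte gene, at 1.06 and 0.984.

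Markers of other cells were measured in the same way. With the primary group 3 of 5 basophil and mast cell genes measured reached 2, namely Cpa3 (2.72), Mcpt8 (2.37) and Prss34 (2.30), against 0 of 5 with the specific group. Their summed list was at 1.78 CPM in NEJ146, 3.57 in NEJ634, 9.11 in NEJ687 and 2.91 in NEJ723 and at 0.433 to 1.02 CPM in the other 3 tissues, so it was higher in each named tumour. Its part in the levels of the 9 genes was not tested. Of the monocyte genes 3 of 5 reached 2 with each of the 3 groups (Ly6c2, F13a1 and Chil3, the last also in the specific granule list). Erythroid genes followed the specific group at 4.63 and the primary group at 2.28 in NEJ634, and at 0.845 to 1.71 in the other named tumours. The eosinophil gene (Prg2) and the T and NK cell gene Nkg7 reached 2 with the primary group. Kupffer cell, hepatocyte, hepatoblast and endothelial lists had 0 genes at 2 with any group.

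The genes most like each group were taken by rank of that median, members left out. For the primary group they were Ms4a3 (8.26), Gm1604a (8.10), Fcnb (6.57), Prss57 (5.93) and Gfi1 (5.26), over 3 or 4 tissues. For the specific group they were D830026I12Rik (18.6), Gm47071 (13.5), Mapk4 (12.9), the integrin gene Itgb2l (11) and Slco4c1 (10.7), and for the S100 group Nxph1 (17), F730016J06Rik (12.8), Aldh3b2 (12), D830026I12Rik (10.4) and Slco4c1 (9.59). Several of these rested on few UMIs: D830026I12Rik was at 18.6 in NEJ146, 23.5 in NEJ634 and 0 in NEJ687 with the specific group, whereas Itgb2l was at 35.0, 15.7, 6.23 and 4.49 in NEJ146, NEJ634, NEJ687 and NEJ723.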

How the data were processed

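The values are UMI counts by gene and by spot, which the authors deposited without normalisation, for nearly every spot of each slide. Per the labels' processing notes, Cell Ranger 6.0 made the NEJ146 counts, with no build given, and Space Ranger 1.3 the others on mm10. Tissue spots were those called in the deposited position files, and in NEJ146, which has none used here, spots with at least 8000 UMIs, placed by the barcodes of the other sections. Members and gene lists were chosen with earlier results of these data known. UMIs were summed over tissue spots and divided by their total (CPM). Ratios of groups used summed UMIs plus 0.5. NEJ146 sections differed from each other by 14.1 to 86.6 chi-square per degree of freedom (64.0 or more for each pair with section 4, 19.4 or less for the rest) and were kept as 4 samples. Indices were tested on simulated data. Since the labels do not assign tissues to tumour or liver and 6 of 7 tissues have 1 section, no test between tissues was run, nor a doublet caller, as spots are not cells. Named genes were the members, the listed genes, and for each group the 5 other genes with the highest median index. Python 3.11.15, numpy 2.4.6, pandas 2.3.3 and scipy 1.17.1 were used. Alternatives changed tissue spots, denominators, genes and sections.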

Additional observations from a re-analysis of the deposited data

Results flagged for a closer look

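Over the 4 NEJ146 sections 78 values were compared, of which 7 had 1 section far from the other 3 by Dixon's criterion. Chance gives about 1 in 20 such cases. In section 4 the adjacent-spot index was 41.9 for Ngp (6.89 to 11.3 in the others), 18.1 for S100a8 (4.35 to 5.49), 17 for S100a9 (4.78 to 5.39), 47.6 for the specific granule genes (6.60 to 13.4) and 17.4 for the S100 genes (4.62 to 5.41). The same-spot index of Prtn3 with Camp was 3.15 in 1 section against 2.43 to 2.52. The log2 ratio of specific granule to S100 genes was -1.87 in section 1 against -1.68 to -1.65.

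Spots outside the deposited tissue calls, which enter the report only where every spot was used, also held UMIs of the 9 members, above the level of 3 UMIs in each of 6 sections. Their sum was 1202 CPM in NEJ634, 526 in NEJ723, 2931 in NEJ687, 41.4 in NEJ638, 8.29 in NEJ654 and 17.7 in NEJ677. On the tissue the sum was 714, 441, 1168, 23.4, 9.74 and 9.32 CPM in the same order.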

How the results depend on the processing

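Over the alternatives run, all 9 members kept a range of at least 4-fold (also of 10-fold) and had NEJ638, NEJ654 and NEJ677 lowest. In the main setting 32.5% of 12648 genes ranged at least 4-fold and 42.1% had these tissues lowest. No share over all genes was computed for the alternatives or for 10-fold. Elane, Mpo, Ctsg, Camp, Ngp and Ltf also passed the filter of 1 CPM only through the named tumours. Leaving out each NEJ146 section in turn left both ranges of the log2 ratio at 2.47 (later genes) and 4.17 (specific granule genes), since NEJ146 was at neither end. The range against specific granule genes was 4.74 in tissue spots with 6 adjacent tissue spots. With the mean of log2(CPM + 1) over genes the ranges were 2.94 against later and 2.84 against specific granule genes. Without the gene of each group with the most UMIs (Prtn3, with Camp or S100a9) they were 1.64 and 1.65, and without Prtn3 alone 1.93 and 1.54. The last 4 values leave out the gene that made up most primary UMIs in NEJ638, and NEJ654 and NEJ677 then had too few UMIs. No setting put primary granule genes above specific ones in the adjacent-spot index in any tissue. In NEJ638 the comparison rested on Prtn3 or, without it, on 26 primary granule UMIs, too few to show an order. Primary and specific granule genes were above 1 in the same-spot index in each tissue compared, except that with 8000 or more UMIs in every section, or with every spot, this held in 6 of 7. No paired analysis was possible because no test between tissues was run, and replicate numbers only name sections: 6 tissues have 1 section, and nothing in the labels ties sections of different tissues. Levels under 3 UMIs in NEJ638, NEJ654 and NEJ677 are at the limit of depth.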
